A study of Homo sapiens with 8 samples.

Results

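Blood plasma is filled mainly by the liver, whose hepatocytes secrete protease inhibitors, clotting proteins, carriers of metals and hormones, lipid-binding proteins and complement. Genes of this class are textbook targets of the liver-enriched transcription factors HNF4A, FOXA and C/EBP, and some of them are also transcribed in intestinal epithelium. The 10 genes described here were listed by name: the protease inhibitor genes SERPINA1 and AMBP, the fibrinogen chain genes FGA, FGB and FGG, the carrier genes TF and TTR, the lipid-binding protein genes APOH and APOA2, and the complement gene C3. Of the 10 genes, 7 have a row among the 30755 gene symbols of the RNA-seq table used here. FGA, FGG and APOA2 have no row, so no value is given for them. Symbols that changed name count as absent in such a match, and 24.0% of 20056 protein-coding RefSeq symbols have no row either.

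The cells were ESO26, a line long grown in culture and derived from an adenocarcinoma of the oesophagus. The RNA-seq compared 2 libraries of cells with siRNA knockdown of HNF4A (siHNF4A 1 and 2) with 2 control libraries (control 1 and 2), and what the controls received is not given in the labels used here. A small interfering RNA (siRNA) lowers the mRNA it matches. Nothing in the labels says whether the 2 libraries of a group came from separate cultures, so p-values measure the spread between these libraries, which may be technical. Values are normalized counts as the authors deposited them, not divided by gene length, so they are read here against 0 and against other libraries, and a higher value in one gene than in another also reflects gene length. Normalized counts summed to between 17912500 and 18613700 per library. The number of reads is unknown, and values under 10 are treated as near zero. HNF4A itself had 4129 and 3937 normalized counts in control cells and 1140 and 932 after knockdown, which is 25.7% of the control mean (log2 fold change -1.97, standard error 0.095, adjusted p = 1.59e-05 in limma).

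Of the 7 plasma protein genes with values, 4 (FGB, TTR, APOH and AMBP) were near zero, with fewer than 10 normalized counts in each of the 4 libraries. TF and C3 crossed 10 in some libraries and had a mean under 10. SERPINA1 was the only gene of the 7 with a mean of at least 10, and so the only one tested. Near-zero values in all 4 libraries were found for 44.6% of all symbols in the table and for 18.4% of the 15246 that match a protein-coding RefSeq symbol. In none of the 7 genes did the 2 groups separate, with both knockdown values above or both below the 2 control values, whereas 42.9% of all genes in the table separated in this way, as did 28.4% of those near zero in all 4 libraries but above 0 in some, and 57.0% of the 15577 genes that were tested. Since this is bulk RNA, fewer cells with a transcript and less RNA per cell cannot be told apart.

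**Figure D1:**
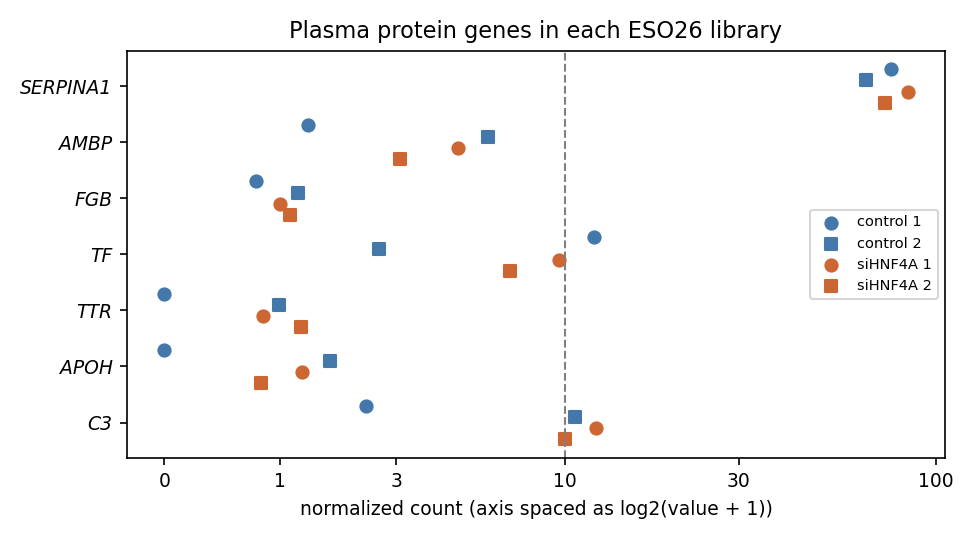
Normalized counts (horizontal axis, spaced as log2 of the value plus 1) of the 7 plasma protein genes with a row in the table; each point is 1 library, blue for control, orange for siHNF4A, and the dashed line marks 10. SERPINA1 lies between 65.6 and 84.2, the other 6 genes lie between 0 and 12.2, and in each gene the control and knockdown points overlap.

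SERPINA1 encodes alpha-1-antitrypsin, the main inhibitor of neutrophil elastase in plasma. It had 75.9 and 65.6 normalized counts in control 1 and control 2 and 84.2 and 73.2 in siHNF4A 1 and siHNF4A 2. The lower knockdown library lay between the control libraries, so the groups overlapped. The means were 70.7 ± 7.32 in control cells and 78.7 ± 7.76 after knockdown (SD, n = 2 each). On the log2 scale the knockdown was higher by 0.15 (standard error 0.23), and the 95% interval ran from -0.35 to 0.66 (an adjusted p of 0.708 in limma). In linear terms that interval spans 0.782 to 1.58 times the control, so changes within it, in either direction, remain possible. It is not the smallest change that could have been called. Among all genes tested 14.1% were called at an adjusted p under 0.05, 6.02% higher and 8.11% lower after knockdown. The balance depended on the scaling: 1136 were called higher and 1010 lower after rescaling to equal sums. After quantile normalization the counts were 1031 and 1027. Without the trend between variance and level in the model limma called 0 genes, while 3524 were under an unadjusted p of 0.05.

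SERPINA1 lies in a cluster of related serpin genes on chromosome 14, in which RefSeq lists 10 genes named SERPINA. Of these, 5 have a row in the table. SERPINA10, whose product inhibits clotting factor X, had 19.8 and 12.3 normalized counts in control cells and 9.99 and 12.3 after knockdown. SERPINA4, the gene of kallistatin, had 27.4 and 32.4 in control cells and 33.9 and 19.8 after knockdown. SERPINA5 and SERPINA3 stayed under 10 in every library, with highest values of 7.85 and 3.83. Thus 3 genes of the cluster had a mean of at least 10, and neither SERPINA10 (adjusted p = 0.567 in limma) nor SERPINA4 (adjusted p = 0.778) was called.

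AMBP encodes a precursor that is cleaved into alpha-1-microglobulin, a haem-binding protein, and bikunin, a protease inhibitor. Its normalized counts were 1.36 and 5.95 in control cells and 4.79 and 3.10 after knockdown, so both knockdown values lay between the control values. Bikunin circulates joined to heavy chains encoded by ITIH genes, and these were near zero too. ITIH2 did not exceed 3.98, ITIH1 and ITIH4 were above 0 in siHNF4A 2 only, at 1.87 and 2.35, and ITIH3 has no row.

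Fibrinogen, which thrombin converts to fibrin, is assembled from alpha, beta and gamma chains, the products of FGA, FGB and FGG, which neighbour each other on chromosome 4. FGB had 0.73 and 1.23 normalized counts in control cells and 1.002 and 1.12 after knockdown. Values of this size are those of genes barely above 0: among genes above 0 in a single library the median value was 1.25 and 1.13 in the 2 control libraries and 0.97 and 1.06 in the 2 knockdown libraries. FGB can thus be placed only near the lowest non-zero values of the table, and no fold change is given for it.

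TF encodes transferrin, the iron carrier of plasma. It had 12.1 and 2.61 normalized counts in control cells and 9.61 and 6.88 after knockdown. Control 1 was 4.63 times control 2, and both knockdown values lay between them. In the RefSeq annotation the TF span overlaps other genes, among them SRPRB and the pseudogene INHCAP, so its low values are uncertain where the counting could not separate such reads. TTR encodes transthyretin, which carries thyroxine and, with retinol-binding protein, vitamin A. TTR was listed at 0 in control 1 and had 0.98 in control 2, 0.81 in siHNF4A 1 and 1.27 in siHNF4A 2. RBP4, the gene of that retinol-binding protein, was listed at 0 in 3 libraries and had 0.91 in siHNF4A 1. STRA6, the receptor for retinol-binding protein, did not exceed 3.54.

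APOH encodes beta-2-glycoprotein I, which binds anionic phospholipids. It was listed at 0 in control 1 and had 1.69 normalized counts in control 2, 1.28 in siHNF4A 1 and 0.78 in siHNF4A 2. Of the 2 genes listed at 0 in some library, TTR and APOH, each was at 0 in control 1 only. The other apolipoprotein list, given below, held APOA1, the main protein of high-density lipoprotein, with at most 2.22.

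C3 encodes the complement protein on which all activation routes converge. It had 2.34 and 10.7 normalized counts in control cells and 12.2 and 10.001 after knockdown. Control 1 stood low, control 2 was 4.55 times higher, and the knockdown libraries lay on both sides of control 2. With a mean under 10 the gene was not tested.

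The sequences around the annotated starts of these genes are shown because SERPINA1, which had counts, and genes near zero or without a row can be set side by side. The windows run from 250 bases before to 50 bases after a RefSeq start in GRCh38.p14. They are reference sequences and are not linked to the expression values by any test. RefSeq windows were at hand for 8 of the 10 genes, in 11 windows, with 2 starts each for SERPINA1, TF and FGB. Capitals mark matches to the motifs given here. These were, on both strands, CAAAGTCCA and CAAAGTCC for HNF4, TGTTTAC for FOXA, TTGNNCAA for C/EBP, AGATAA for GATA factors and TATAAA for the TATA box, and, added after the windows had been seen, AGGTCAAAG (a nuclear receptor stretch). The longer HNF4 motif holds the shorter.
SERPINA1, downstream start, minus strand, chr14:94388553-94388852: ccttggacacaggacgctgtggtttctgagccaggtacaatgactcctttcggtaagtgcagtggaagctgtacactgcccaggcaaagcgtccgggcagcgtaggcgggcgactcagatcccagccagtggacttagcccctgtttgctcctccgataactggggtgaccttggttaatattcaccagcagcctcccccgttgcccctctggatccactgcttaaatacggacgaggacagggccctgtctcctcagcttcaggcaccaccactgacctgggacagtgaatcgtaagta
FGA, minus strand, chr4:154590693-154590992: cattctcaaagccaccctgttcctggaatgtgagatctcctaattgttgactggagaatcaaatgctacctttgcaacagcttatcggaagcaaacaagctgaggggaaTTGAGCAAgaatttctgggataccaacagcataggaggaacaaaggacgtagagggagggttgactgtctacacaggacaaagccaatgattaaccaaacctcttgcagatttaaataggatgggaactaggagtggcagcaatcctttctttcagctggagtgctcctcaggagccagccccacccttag
FGB, upstream start, plus strand, chr4:154562730-154563029: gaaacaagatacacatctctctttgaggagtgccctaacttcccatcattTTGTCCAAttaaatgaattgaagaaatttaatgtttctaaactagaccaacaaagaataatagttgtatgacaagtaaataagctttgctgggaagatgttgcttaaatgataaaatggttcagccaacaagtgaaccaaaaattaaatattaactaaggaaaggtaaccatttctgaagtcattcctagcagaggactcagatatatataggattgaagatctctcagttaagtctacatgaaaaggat
APOH, minus strand, chr17:66229366-66229665: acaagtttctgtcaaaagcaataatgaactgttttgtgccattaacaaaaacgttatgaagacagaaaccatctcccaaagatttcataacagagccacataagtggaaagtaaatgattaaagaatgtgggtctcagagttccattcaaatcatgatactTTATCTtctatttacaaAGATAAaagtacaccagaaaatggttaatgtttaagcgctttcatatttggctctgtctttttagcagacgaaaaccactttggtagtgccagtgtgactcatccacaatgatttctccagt
TF, downstream start, plus strand, chr3:133746143-133746442: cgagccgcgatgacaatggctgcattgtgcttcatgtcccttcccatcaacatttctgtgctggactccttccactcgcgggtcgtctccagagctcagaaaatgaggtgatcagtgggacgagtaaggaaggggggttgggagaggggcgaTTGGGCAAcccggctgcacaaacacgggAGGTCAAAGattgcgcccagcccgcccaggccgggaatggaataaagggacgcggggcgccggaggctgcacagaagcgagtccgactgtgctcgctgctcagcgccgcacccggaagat

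The C/EBP motif began at base -141 from the FGA start, at -200 from the FGB upstream start and at -98 from the TF downstream start, and it occurred in 5.55% of all 35116 RefSeq windows. APOH held the GATA motif at -72 on the gene's strand and at -89 on the other, where it reads TTATCT, and 10.3% of all windows held it. The C/EBP motif also lay at -165 in AMBP and at -231 from the FGB downstream start, and the GATA motif at -232 in FGG and at 38 in APOA2. APOA2 held the FOXA motif on the other strand at -42 (3.42% of all windows). AGGTCAAAG lay at -70 of the TF downstream start and occurred in 0.276% of all windows. No window of these genes held CAAAGTCCA (0.384% of all windows), CAAAGTCC (1.20%) or TATAAA (11.5%). Both SERPINA1 windows and the upstream TF window held no exact match to these motifs. Only exact matches were sought, so a binding site that differs from a motif in any base is not marked. A window without a match may therefore still hold such sites. The table gives 1 value per gene, so the start that SERPINA1 transcripts used is not known here. TTR and C3 are named only.

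The neighbours of the plasma protein genes were examined for their own values. For each gene the nearest protein-coding gene with a row in the table that does not overlap it was taken on either side in RefSeq order. Of 17 such neighbours, 1 of them FGB itself, 3 were near zero in all 4 libraries, a share close to the 18.4% of protein-coding symbols, and 8 had a mean of at least 100 normalized counts. PLRG1, a splicing factor gene beside FGB, had between 646 and 769 normalized counts. DSG2, a desmosomal cadherin gene beside TTR, had between 5309 and 5696. PRKCA beside APOH had between 1349 and 1618, and TOMM40L on one side of APOA2 between 276 and 313, while FCER1G on its other side did not exceed 3.03. GPR108 on one side of C3 had between 407 and 460, and TNFSF14 on the other did not exceed 1.11. Genes without a row, FGA and FGG among them, were passed over in this choice, as was SRPRB, which overlaps TF. These values thus do not cover every adjoining gene.

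**Figure D2:**
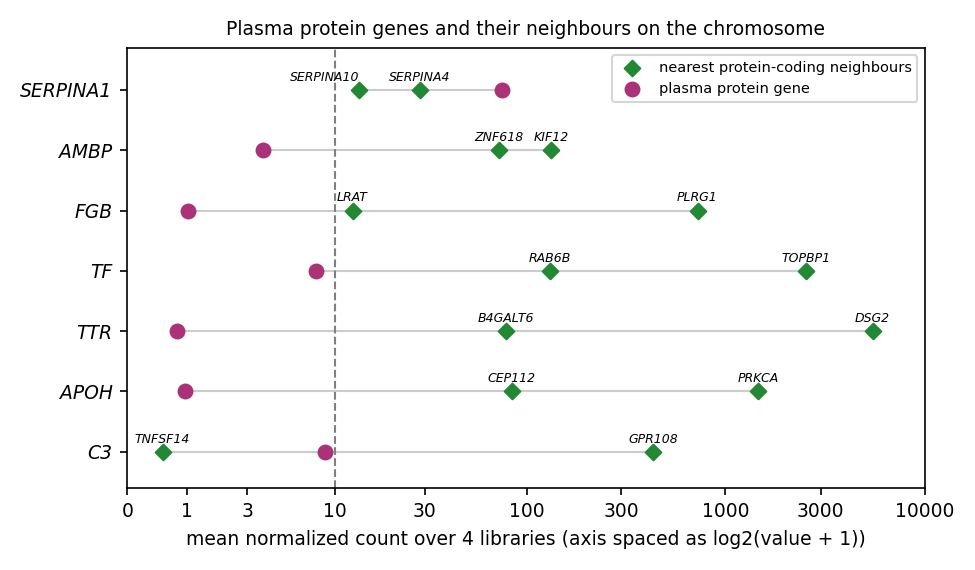
Mean normalized count over the 4 libraries (horizontal axis, spaced as log2 of the value plus 1) of the 7 plasma protein genes with a row (purple circles). Green diamonds, named, are their nearest protein-coding neighbours that have a row in the table and do not overlap them. The dashed line marks 10. The neighbours of FGA, FGG and APOA2 are not drawn as such; all neighbours drawn other than TNFSF14 lie to the right of the line, and SERPINA1 is the only plasma protein gene that does.

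Further genes were taken from lists of carriers, protease inhibitors, clotting and fibrinolysis genes, complement genes and apolipoproteins. Most encode secreted plasma proteins, but some, among them SPINT1, SPINT2, CD46 and CD59, encode membrane proteins, and the counts below include them. Together they held 98 symbols, of which 79 had a row, 38 were near zero in all 4 libraries and 33 were tested. Of protein-coding symbols 18.4% were near zero. The only called gene was PLAU, which encodes urokinase, a plasminogen activator made by many epithelia. It had 249 and 264 normalized counts in control cells and 401 and 410 after knockdown (log2 fold change 0.66, standard error 0.12, adjusted p = 0.0072 in limma, and 0.0519 without siHNF4A replicate 2). The share called, 1 of 33, stands beside 14.1% of all genes tested, which were not matched for level. The median log2 fold change was 0.063 for these 33 genes and -0.0073 for all genes tested. Over all lists, without HNF4A and the plasma protein genes described first, 22 of 78 tested genes were called. With the filter raised to a mean of at least 50 normalized counts, 21 of 51 were called. Whether low counts account for the share of 1 of 33 was not tested. The same limit applies to the shares called in single lists below.

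Of 15 carrier genes with a row, 10 were near zero. ALB, the gene of serum albumin, was listed at 0 in both controls and had 1.504 and 1.10 after knockdown. AHSG, ORM2 and AGT, which encode fetuin-A, an orosomucoid and angiotensinogen, went the other way: they had between 2.22 and 4.45 in the controls and were listed at 0 in both knockdown libraries. Of all genes near zero but above 0 in some library 28.4% separated, so no direction is read from these values. Above 10 in all 4 libraries were GC, the vitamin D-binding protein gene, with 30.1 and 34.4 in control cells and 20.7 and 31.02 after knockdown, and AZGP1, with 42.0 and 26.6 in control cells and 25.4 and 23.9 after knockdown. Neither was called (adjusted p = 0.582 and 0.475 in limma). AFP, also tested and singled out after its values were seen, had 25.2 and 22.6 in control cells and 16.2 and 7.27 after knockdown. It was not called either (log2 fold change -1.06, adjusted p = 0.171 in limma), and 57.0% of all genes tested separated in one direction or the other. Of 17 protease inhibitor genes 9 were near zero, and SERPIND1 and PZP were listed at 0 in all 4 libraries. SPINT1 and SPINT2, which encode membrane-anchored inhibitors of epithelial cells, were far above 10 in every library. SPINT1 had 6595 ± 327 normalized counts in control cells and 6491 ± 47.2 after knockdown (SD, n = 2 each), and its small difference of -0.022 (log2) changed sign with the scaling, to 0.017 with equal sums.

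Of 16 clotting and fibrinolysis genes 8 were near zero, among them F2, the prothrombin gene, which did not exceed 2.23, and PLG, the plasminogen gene, which did not exceed 7.87. F12, the gene of clotting factor XII, had 218 and 242 normalized counts in control cells and 208 and 152 after knockdown. Both knockdown values were lower, 57.0% of all genes tested separated in one direction or the other, and F12 was not called (adjusted p = 0.211 in limma). Of 18 complement genes with a row 4 were near zero, a share close to the 18.4% of protein-coding symbols. Of the 18, 13 were tested and none was called, beside 14.1% of all genes tested. CD46 and CD59 encode membrane regulators that limit complement on host cells. CD46 had 8592 ± 173 normalized counts in control cells and 8375 ± 9.43 after knockdown, and CD59 had 3353 ± 90.8 and 2978 ± 333 (SD, n = 2 each). The sign of the CD46 difference, -0.037 (log2), also changed with equal sums, to 0.0024. CFB, which joins C3 in the alternative pathway convertase and was singled out after its values were seen, had 203 and 256 in control cells and 261 and 218 after knockdown. Of 13 apolipoprotein and related genes 7 were near zero, and none of the 4 tested was called, beside the same 14.1% of all genes tested. With 4 genes nothing is read from that. APOM had 38.7 ± 3.64 in control cells and 31.3 ± 0.023 after knockdown, and PON3 had 49.8 ± 5.20 and 39.6 ± 3.56 (SD, n = 2 each).

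**Figure D3:**
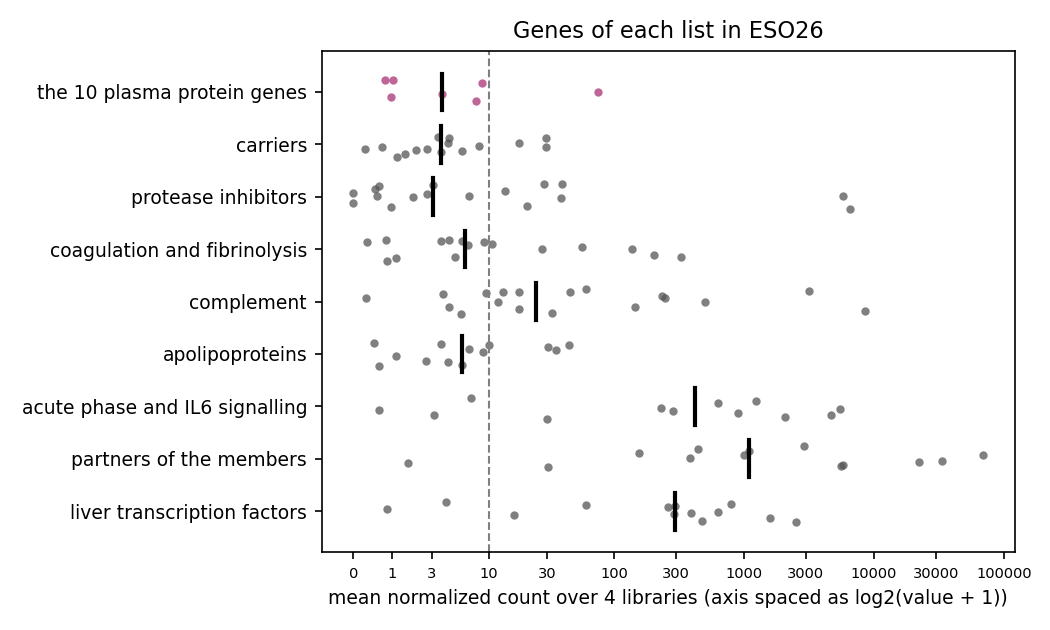
Mean normalized count over the 4 libraries (horizontal axis, spaced as log2 of the value plus 1) of the genes of each list that have a row in the table; each point is a gene, the black bar is the median of the list and the dashed line marks 10. Of the plasma protein genes 1 lies to the right of the line, while most partners and liver transcription factors lie above 100.

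Genes whose products act on or with these plasma proteins were mostly well above 10 normalized counts, and 8 of them were called. Without the trend none of these 8 was called, with adjusted p in limma from 0.123 (SURF4) to 0.240 (MCFD2). The list held 14 symbols, of which 13 had a row and 12 were tested. Of the 12, 2 were called higher and 6 lower after knockdown, beside 6.02% and 8.11% of all genes tested. The balance of those shares over all genes changed with the scaling, as given above. The median log2 fold change of the 12 was -0.28. On the iron side, TFRC, the transferrin receptor that takes up iron-loaded transferrin, had 21877 and 21657 normalized counts in control cells and 22955 and 22172 after knockdown and was not called (adjusted p = 0.514 in limma). TFR2, a second transferrin receptor that senses iron in hepatocytes, fell from 188 ± 22.9 to 124 ± 2.97 (SD, n = 2 each), which is -0.60 on the log2 scale (adjusted p = 0.0454 in limma). STEAP3, the endosomal ferrireductase that prepares transferrin-delivered iron for export, fell from 1210 and 1349 to 951 and 903 (log2 fold change -0.46, adjusted p = 0.0083 in limma). FTH1, the ferritin heavy chain gene, rose from 56571 and 65065 to 75753 and 78894 (log2 fold change 0.35, adjusted p = 0.0059 in limma). SLC40A1, the iron exporter ferroportin, rose from 379 ± 25.8 to 503 ± 37.4 (SD, n = 2 each; adjusted p = 0.0452 in limma). FTL, the ferritin light chain gene, had 33144 ± 4067 in control cells and 33352 ± 1159 after knockdown and was not called. TFRC, TFR2, SLC40A1 and, below, MCFD2 were singled out after their values were seen. Without siHNF4A replicate 2 the adjusted p in limma was 0.0600 for FTH1 and 0.0542 for STEAP3. Without the filter 7 of the 8 called partner genes, all but SURF4, lost their call, with adjusted p in limma from 0.0555 (STEAP3) to 0.133 (SLC40A1). TFR2 and SLC40A1 lost their call without control replicate 2 (0.193 and 0.139), without siHNF4A replicate 1 (0.132 and 0.236) and without siHNF4A replicate 2 (0.167 and 0.0890).

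The list also held SURF4, LMAN1 and MCFD2, genes of the cargo receptors that carry plasma proteins out of the endoplasmic reticulum. SURF4 fell from 6607 and 7131 normalized counts to 4943 and 4666 (log2 fold change -0.52, standard error 0.063, adjusted p = 0.00096 in limma). LMAN1, a lectin that ferries clotting factors and alpha-1-antitrypsin, fell from 3606 and 3071 to 2393 and 2551 (log2 fold change -0.43, adjusted p = 0.0091 in limma). Its partner MCFD2 fell from 6087 ± 145 to 5109 ± 366 (SD, n = 2 each; adjusted p = 0.0294 in limma). All 3 genes had both knockdown libraries below both controls, and 57.0% of all genes tested separated in one direction or the other. LRP1, an endocytic receptor that clears complexes of proteases with alpha-1-antitrypsin and other inhibitors, fell from 497 and 432 to 330.1 and 280.1 (log2 fold change -0.60, adjusted p = 0.0157 in limma). Without siHNF4A replicate 1 the adjusted p was 0.0585 for LMAN1 and 0.212 for MCFD2, which also had 0.0502 without control replicate 1, and without siHNF4A replicate 2 it was 0.0994 for LRP1. MCFD2 also lost its call with equal sums (0.0560) and quantile normalization (0.0813).

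The acute phase is the response in which interleukin-6 acts through its receptor and STAT3 to raise SERPINA1, fibrinogen and C3 in the liver. Its secreted products differed in level: SAA1 did not exceed 10.2, SAA2 did not exceed 3.71 and LBP did not exceed 1.22, and CRP and SAA4 have no row. LCN2, which encodes the iron-siderophore binding protein lipocalin-2, had 1924 and 2035 normalized counts in control cells and 2284 and 2080 after knockdown, with an adjusted p of 0.260 in limma. SAA1 and LCN2 were singled out after their values were seen. The receptor and its signalling genes did have counts, and 3 of the 9 genes of the list that were tested were called, 1 higher and 2 lower, beside 14.1% of all genes tested. IL6R, the interleukin-6 receptor gene, fell from 349 and 348 normalized counts to 213 and 222 (log2 fold change -0.68, adjusted p = 0.0077 in limma). IL6ST, the gene of the shared signalling chain gp130, fell from 1899 and 1314 to 829 and 898 (log2 fold change -0.87, standard error 0.15, adjusted p = 0.0044 in limma). STAT3 rose from 4750 and 5041 to 6198 and 6150 (log2 fold change 0.34, adjusted p = 0.0054 in limma). These 3 calls held with any 1 library left out, but not without the trend (adjusted p = 0.0995 for IL6R, 0.152 for IL6ST and 0.156 for STAT3 in limma), and IL6ST was not called without the filter (0.0650). The median log2 fold change of the 9 genes was 0.14. JAK1, with 4390 ± 124 in control cells and 4945 ± 133 after knockdown (SD, n = 2 each), was not called (adjusted p = 0.0860 in limma), and was called after rescaling to equal sums (adjusted p = 0.0426) and after quantile normalization (adjusted p = 0.0330).

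**Figure D4:**
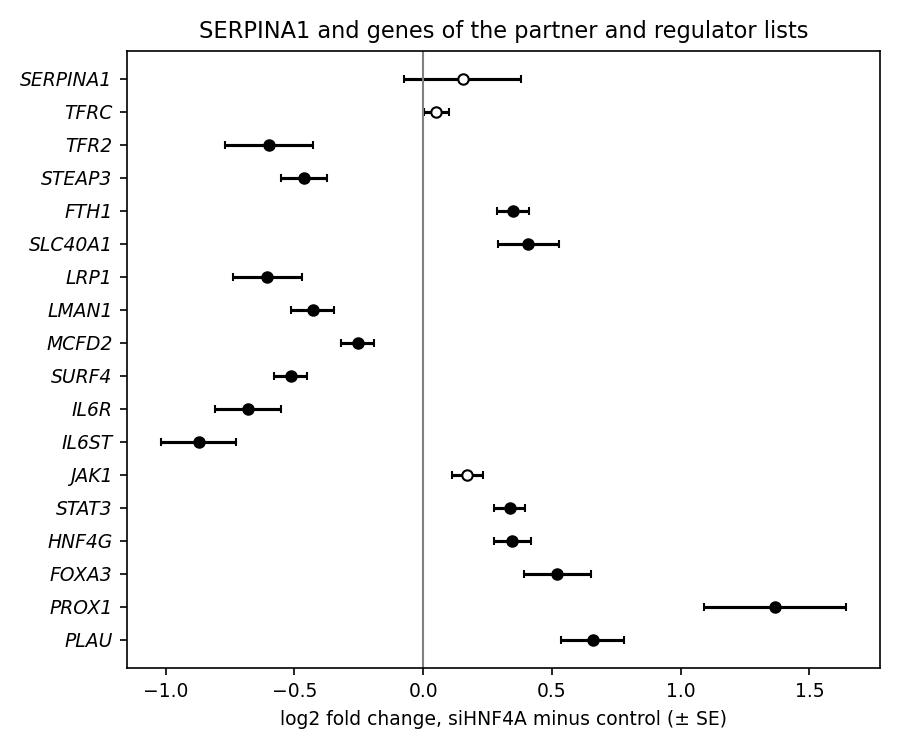
Log2 fold change, knockdown minus control, with its standard error (horizontal bars) for SERPINA1 and for genes of the partner, interleukin-6, transcription factor and fibrinolysis lists; filled circles passed an adjusted p under 0.05 in limma and open circles did not. SERPINA1, TFRC and JAK1 are open, and the others shown are filled, from -0.87 for IL6ST to 1.37 for PROX1.

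Transcription factors known to act on plasma protein genes in the liver were mostly expressed in these cells. Of the 13 genes on the list 11 were tested, 3 called higher and 2 called lower (14.1% of all genes tested were called), with HNF4A among the lower genes by design. PROX1, a regulator of hepatocyte development, rose from 29.4 and 37.5 to 75.7 and 100.4 (log2 fold change 1.37, standard error 0.28, adjusted p = 0.0104 in limma). HNF4G, the paralog of HNF4A, and FOXA3 were also called higher, with log2 fold changes of 0.35 and 0.52. Without siHNF4A replicate 2 the adjusted p in limma was 0.105 for PROX1, 0.0826 for HNF4G and 0.110 for FOXA3, and without the filter it was 0.0639, 0.0577 and 0.109. HNF4G also lost its call without siHNF4A replicate 1 (0.0543), and FOXA3 without that library (0.107) and without control replicate 1 (0.0901). The median log2 fold change of the 11 genes was 0.25. NR1H4, the bile acid receptor, and ONECUT1 were near zero, with highest values of 2.22 and 6.08.

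The labelled cell type was checked against markers. All 7 epithelial markers were tested and 5 were called, 2 higher and 3 lower, beside 14.1% of all genes. EPCAM, an epithelial adhesion protein gene, fell from 30691 ± 30.4 to 25109 ± 20.7 (SD, n = 2 each; log2 fold change -0.29, adjusted p = 0.0029 in limma). The keratin genes KRT8 and KRT18 fell by 0.43 and 0.51 on the log2 scale (adjusted p = 0.0016 and 0.00072 in limma). KRT19, another keratin gene, and CDH17, an intestinal cadherin gene, rose by 0.22 and 0.20 (adjusted p = 0.0192 and 0.0258 in limma), and both lost their call without the filter and without control replicate 1, siHNF4A replicate 1 or siHNF4A replicate 2 (adjusted p from 0.0521 to 0.152). The sum of the 7 ranged from 99005 to 102106 in control cells and from 94007 to 95799 after knockdown. Of 9 hepatocyte markers, which include ALB and TTR, 4 were near zero in all 4 libraries, beside 18.4% of protein-coding symbols, 2 were tested and none was called, beside 14.1% of all genes tested, and their sum ranged from 202 to 215 in control cells and from 158 to 159 after knockdown. CYP2E1, an enzyme abundant in hepatocytes, had 154 ± 12.1 in control cells and 124 ± 1.93 after knockdown (SD, n = 2 each). CPS1, a urea cycle enzyme gene, had 12.4 and 31.6 in control cells and 12.9 and 1.69 after knockdown and was not called (adjusted p = 0.166 in limma), but was called without control replicate 1 (0.0334) and without siHNF4A replicate 1 (0.0493). Of 10 markers of leukocytes, endothelium, fibroblasts and red cells, 8 had a row, and the leukocyte marker PTPRC did not exceed 2.05. Their sum ranged from 200 to 266 in control cells and from 314 to 342 after knockdown. COL1A1, a fibroblast collagen gene, had 179 and 108 in control cells and 202 and 212 after knockdown and was not called (adjusted p = 0.128 in limma), but was called without control replicate 1 (0.0034). CD68, a macrophage marker, had 54.6 and 57.1 in control cells and 28.5 and 64.4 after knockdown. VWF, an endothelial marker and itself a plasma protein gene, rose from 8.55 and 6.68 to 47.5 and 36.4 (log2 fold change 2.31, adjusted p = 0.0054 in limma, and 0.0701 without siHNF4A replicate 1). The part of this difference in the values above was not tested.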

How the data were processed

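The deposited table gives 1 normalized count per gene symbol and library, a signal value made by the authors; its normalization, counting program and annotation are not given in the sources used here. The submitters' processing notes name hg19 and list Bowtie, Bowtie2, Trim Galore, Picard and MACS2 without roles. Titles gave the groups. Values are fractional, whole reads were not recovered, depth is unknown and no counting intervals are given. Genes with a mean of at least 10 over the 4 libraries were tested with limma 3.58.1 in R 4.3.3 (lmFit, eBayes with trend) on log2(normalized count + 1), which understates changes of low genes, with Benjamini-Hochberg adjustment over all genes tested. The fit was tested on simulated data. A 2 against 2 exact permutation test cannot give a p below 0.333. The 10 genes, the lists and the choices were made with earlier results of these data known. Named in the text are the 10 genes, HNF4A, up to 5 called genes with the smallest p and the 2 highest genes of each list (carriers, protease inhibitors, clotting and fibrinolysis, complement, apolipoproteins, acute phase and interleukin-6, partners, liver transcription factors, epithelial, hepatocyte and other cell type markers), genes near zero that a count covers, and chromosomal neighbours and serpin relatives added after the values were seen. Alternatives were other pseudocounts, filters and scalings, no trend, a replicate block and each library left out. Levels per coding length and peaks beside genes had been planned and were not run, since no protein table and no hg19 annotation were used. Promoter sequences and gene order are from RefSeq (GRCh38.p14). Values of 1 gene of the transcription factor list, which its counts include, and 1 motif are not reported here.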

Additional observations from a re-analysis of the deposited data

How the results depend on the processing

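SERPINA1 was not called in any alternative, with log2 fold changes from 0.052 (quantile normalization) to 0.19 with all 4 libraries and from 0.049 to 0.26 with 1 left out, and the number of plasma protein genes called was 0 throughout. Without the filter all 7 were tested, and their adjusted p in limma ran from 0.585 (C3) to 0.970 (FGB). With near zero set at 5 the count of such genes was 3, and at 20 it was 6. Without the filter 726 of 30247 genes and 8 list genes were called, against 2202 and 22; without the trend 0 and 0 were called, with 3524 genes at an unadjusted p under 0.05, and HNF4A had an adjusted p of 0.0919. The cause was not tested. With 1 library left out the counts ranged from 1013 (without siHNF4A replicate 2; 1101 without siHNF4A replicate 1) to 2449, and from 10 (without siHNF4A replicate 2; 14 without siHNF4A replicate 1) to 23 list genes; a lone library is assumed to vary like the other group. Signs changed for genes that were not called: SPINT1 (0.017 with equal sums, 0.019 with quantile normalization, -0.073 to 0.029 with 1 library left out), CD46 (0.0024 and 0.043), FTL (-0.11 to 0.14) and CD68 (-0.95 to 0.20). Without the filter 13 of 39 named genes lost their call, and without the trend 22 did. With 1 library left out 4, 2, 9 and 11 did (control replicates 1 and 2, siHNF4A replicates 1 and 2), and 2, 0, 1 and 0 gained one. TFR2 and MCFD2 lost their call with equal sums (adjusted p = 0.0574 and 0.0560 in limma), and MCFD2 with quantile normalization (0.0813). With the replicate number as a block 2428 genes and 22 list genes were called and no named gene changed its call; deviations of same-numbered libraries had a Pearson r of -0.019 across 15577 genes and 0.056 across the 10918 with a mean of at least 100, and the numbers are not treated as pairs.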
